A study of Bos taurus with 15 samples.

Results

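The libraries compared here came from bovine meniscal fibrochondrocytes, the cells that make and hold the matrix of the knee meniscus, grown into tissue for 28 days either at the post region of an anchored mold or with no mold at all. The comparison was set by the treatment labels: 3 anchored-post libraries against 3 no-mold libraries, which is 6 of the 15 libraries of the study. All 5 groups of the study hold 3 libraries each and passed through the same culture, 25 days in chondrogenic medium after 3 days in growth medium that held 10% fetal bovine serum. The chondrogenic medium held 50 µg/ml ascorbic acid, 1e-07 M dexamethasone and 10 ng/ml TGF-β3. The other 3 groups are the middle region of the anchored mold and the post and middle regions of an unanchored mold. The no-mold tissue carries the word Blob in its titles. No genetic change is named for any group, and no breed, age or number of animals was given. Tissues were cut into regions and each region into pieces before bulk RNA extraction, so that replicates may be pieces of the same tissue and the p-values below may measure only the spread between pieces. The mold, its anchors and the sampled region all differ at once between these 2 groups and cannot be told apart within the comparison. Direct comparisons of the anchored post with the unanchored post, where anchoring differs, and with the anchored middle, where region differs, are therefore given beside it.

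Fibrochondrocytes stand between cartilage cells and fibroblasts. Under TGF-β and a glucocorticoid in a compact tissue they can make cartilage matrix, type II, IX and XI collagen with aggrecan and its link protein, under the transcription factor SOX9. Under tension and spreading they are known for a fibrous matrix of type I collagen, decorin and tenascin and for a contractile cytoskeleton of actin, tropomyosin and myosin. Boundary attachments such as posts are a common way to give a contracting tissue something to pull on.

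Counts per library were 2060781, 4466562 and 2128257 without a mold and 4970209, 5663815 and 7415701 at the anchored post, so that no-mold libraries 1 and 3 held the fewest counts of the 6. Those 2 libraries also held the most transcripts of AFP, the fetal serum protein alpha-fetoprotein, at 121, 43.2 and 122 CPM (counts scaled to a library of 1e+06, TMM-normalised unless said otherwise) without a mold against 66.2, 42.6 and 74.3 CPM at the anchored post. The part of depth and of such transcripts in the results was not tested, and the main counts of genes are also given without those 2 libraries. On the first principal component, which carried 39.9% of the variance, no-mold library 2 sat at -3.23, nearer to the anchored-post libraries (15.2 to 25.4) than no-mold libraries 1 (-30.0) and 3 (-25.7) did. The 12 genes listed for meniscal and fibrochondrocyte identity were all detected, with summed levels of 2.83e+04 to 3.76e+04 CPM without a mold and 2.94e+04 to 3.71e+04 CPM at the anchored post. Summed markers of other cells overlapped between the groups for endothelial cells (70.8 to 78.6 against 65.7 to 81.0 CPM), mural cells (71.4 to 97.6 against 50.3 to 96.7 CPM), leukocytes (9.63 to 17.7 against 9.36 to 16.6 CPM), skeletal muscle (13.8 to 28.6 against 9.62 to 19.9 CPM) and Schwann cells (416 to 445 against 392 to 421 CPM), and SOX10, which defines the last, had no count in the 6 libraries. Summed liver and serum transcripts overlapped too (127 to 247 against 101 to 156 CPM). Summed markers did not overlap for red blood cells (5.17 to 8.01 against 1.94 to 3.98 CPM) and adipocytes (281 to 308 against 321 to 512 CPM). The adipocyte sum was carried by FABP4, which did not pass (219 to 258 against 300 to 485 CPM before TMM scaling, log2 fold change 0.53, adjusted p = 0.0681), whereas the other 3 adipocyte markers tested had estimates below 0 and LPL among them fell. The red blood cell sum differed mainly in the haemoglobin chain HBM.

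Of 11834 genes that passed the count filter, 658 (5.56%) differed between the anchored post and no mold at an adjusted p below 0.05 in edgeR's quasi-likelihood test. Of these, 346 (2.92% of the genes tested) were higher at the anchored post and 312 (2.64%) were lower. The libraries of the 2 groups did not overlap in 2964 genes (25.0%), among them 648 of the 658 called, so that a lack of overlap below is to be read against that share. Counts of list members below are to be read against 2.92% higher and 2.64% lower. Among the called genes, 77 fell by at least 2-fold and 47 rose by as much. The count filter bears on these 2 numbers. It passed 157 genes only through their no-mold libraries, 11 of them called. Only through their anchored-post libraries it passed 74 genes, 1 of them called. The median log2 fold change over all genes tested was -0.00242. With library totals in place of TMM scaling that median was 0.0596, and the 779 calls split into 544 higher and 235 lower. Without no-mold libraries 1 and 3 the test called 34 genes, 18 higher and 16 lower, from 1 no-mold library whose spread is taken to be that of the other groups.

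**Figure D1:**
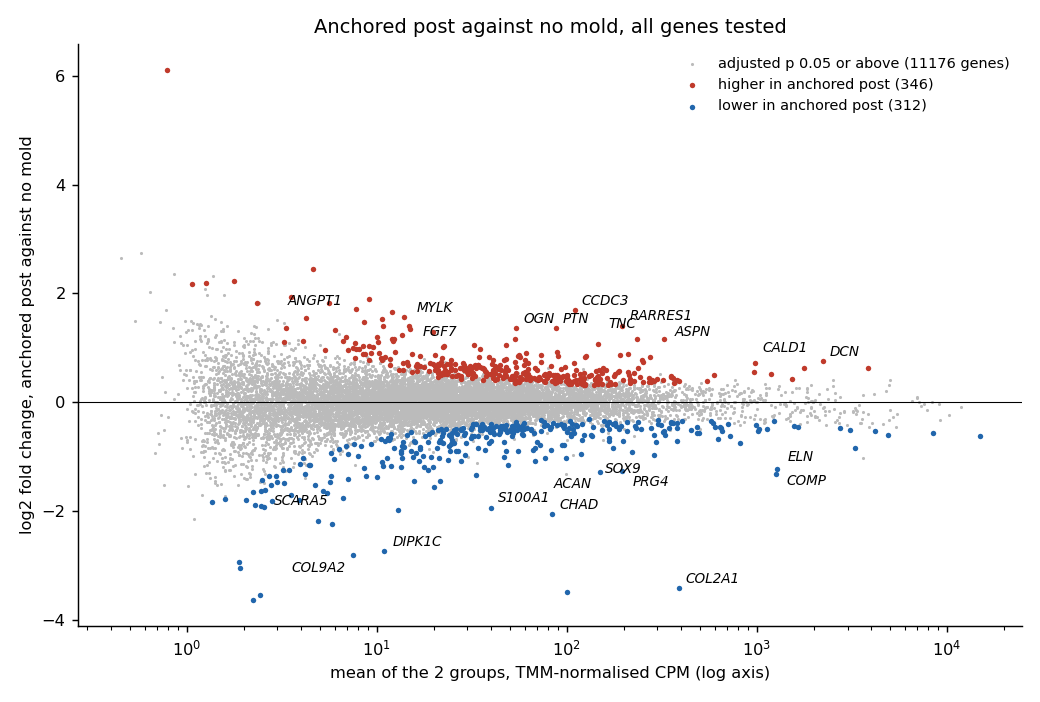
Log2 fold change of the anchored post against no mold (vertical axis) by the mean level of both groups in TMM-normalised CPM (horizontal log axis) for each of the 11834 genes tested. Red marks the 346 higher and blue the 312 lower genes, labels mark genes described in the text, and the highest red point is SCUBE2, which had no count without a mold, so that its fitted value depends on the prior count.

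Cartilage matrix genes were lower at the anchored post. Of 22 genes listed, 12 passed the count filter, 9 of these fell, beside 2.64% of all genes tested, and none rose, and the median of the 12 was -1.30 on the log2 scale. COL9A1, 1 of the 9, passed the filter only through its no-mold libraries, so that its fall is partly set by the filter. All 12 point estimates were below 0. With no-mold libraries 1 and 3 left out, 4 of the 12 still fell. In bulk tissue, fewer cells of a kind and less RNA per cell cannot be told apart, here and for every group of genes below.

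COL2A1 (ENSBTAG00000013155), which encodes the main collagen of cartilage, stood at 864, 750.1 and 510.1 CPM in the 3 no-mold libraries and at 66.4, 78.4 and 54.97 CPM in the 3 anchored-post libraries. Every no-mold library lay far above every anchored-post library (log2 fold change -3.42, SE 0.389, adjusted p = 2.96e-05). COL9A2 (ENSBTAG00000020622), a chain of the type IX collagen that coats type II fibrils, was at 14.7, 17.4 and 6.95 CPM without a mold and 2.37, 2.19 and 1.44 CPM at the anchored post (log2 fold change -2.82, SE 0.386, adjusted p = 9.75e-05). Another chain of that collagen, COL9A1, stood at 3.04, 4.34 and 2.48 CPM against 0, 1.46 and 0 CPM, with no count in 2 of the 3 anchored-post libraries (log2 fold change -2.94, SE 0.718, adjusted p = 0.0166), a call lost without no-mold library 2 (adjusted p = 0.13) or anchored-post library 1 (0.0607) or 3 (0.0704). Here and below, a value in brackets after an omitted library is the adjusted p without it. An omission also lowers the power of the test, so that a lost call need not rest on that library. COL11A2, a chain of the type XI collagen in the core of the same fibrils, was also low in all 3 anchored-post libraries, 1.97, 1.46 and 1.96 CPM against 8.61, 9.60 and 5.95 CPM (log2 fold change -2.19, SE 0.298, adjusted p = 9.61e-05). Its partner chain COL11A1 overlapped between the groups, 848, 772 and 630.2 CPM against 726, 703 and 715 CPM (log2 fold change -0.07, adjusted p = 0.829).

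Among the proteoglycans and their binding partners, ACAN (ENSBTAG00000016158), which encodes the large cartilage proteoglycan aggrecan, was at 269, 211 and 158 CPM without a mold and 99.4, 63.6 and 98.9 CPM at the anchored post (log2 fold change -1.28, SE 0.270, adjusted p = 0.00595). The groups did not overlap, but the call was lost without no-mold library 1 (adjusted p = 0.0503). HAPLN1, the link protein that ties aggrecan to hyaluronan, fell from 515, 449 and 448 CPM to 305, 287 and 267 CPM (log2 fold change -0.72, SE 0.150, adjusted p = 0.00564), a gene outside the naming rule. CHAD, the cell-binding matrix protein chondroadherin, was at 174, 147 and 85.8 CPM against 37.5, 27.9 and 32.5 CPM, so that the highest anchored-post value was below the lowest no-mold value (log2 fold change -2.06, SE 0.246, adjusted p = 3.59e-05). COMP, a pentameric protein of cartilage and tendon matrix, was at 2599, 1469 and 1317 CPM against 772, 624 and 764 CPM (log2 fold change -1.32, SE 0.292, adjusted p = 0.00909). Its no-mold spread was wide, and without no-mold library 1 the adjusted p was 0.091. PRG4, which encodes the joint lubricant lubricin, was at 319, 237 and 270.4 CPM against 98.2, 140.1 and 103 CPM (log2 fold change -1.27, SE 0.185, adjusted p = 0.000196). Over the 6 libraries, 88.3% of its counts stood in values that are not whole, as when reads are shared among genes. Genes given without such a share can hold such values too, as HAPLN1 did (33.8%).

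Of 7 chondrogenic transcription factors tested, 1 fell. It was SOX9 (ENSBTAG00000045824), the regulator that cartilage formation requires, with 232, 202 and 237 CPM without a mold and 125, 114 and 134 CPM at the anchored post. Its 6 values were tight within each group and far apart between them (log2 fold change -0.84, SE 0.102, adjusted p = 3.59e-05). The call held without no-mold libraries 1 and 3. The median of the 7 factors was -0.425 and all 7 estimates were below 0. Of the 12 genes listed for hypertrophy and bone, 3 passed the filter and none of these was called by edgeR, DESeq2 or limma-voom, nor had any an unadjusted p below 0.05 in edgeR's test. COL10A1 and MMP13, which define hypertrophic cartilage, had 2 and 0 counts over the 3 no-mold libraries and 2 and 1 over the 3 anchored-post libraries.

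**Figure D2:**
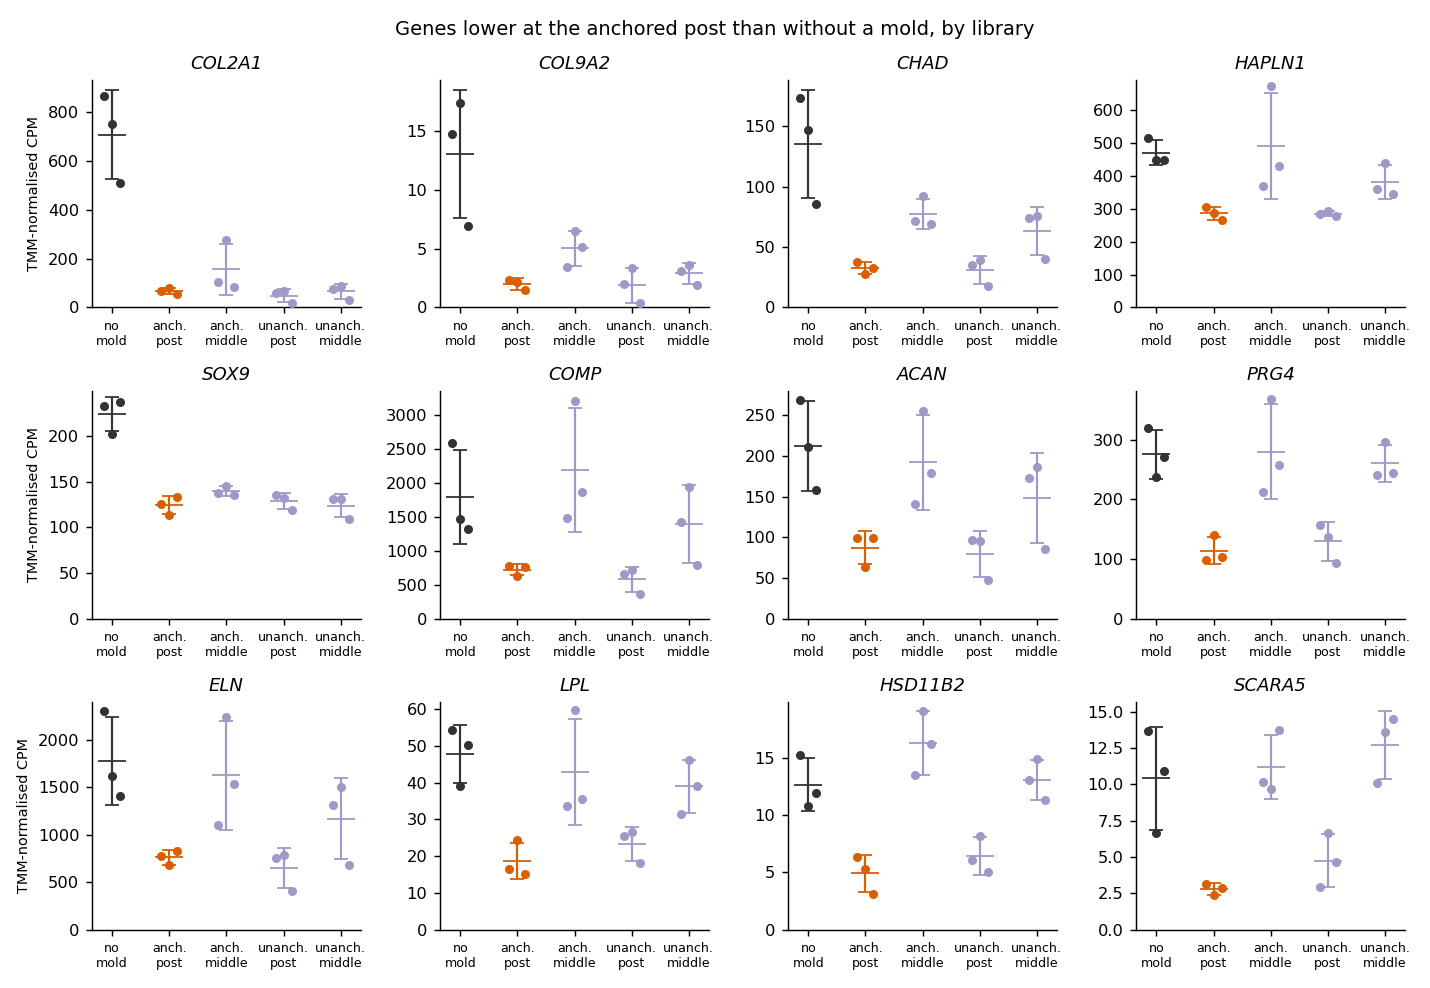
TMM-normalised CPM of 12 genes lower at the anchored post (orange) than without a mold (black), 1 point per library, horizontal bars the group mean and error bars 1 SD of 3 libraries, with the other 3 groups in violet for reference. COL2A1 lies between 55.0 and 78.4 CPM in the orange group and up to 864 CPM in the black group, whereas COMP averages 2189 CPM in the anchored middle.

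Of 16 tested elastic fibre genes, 2 were lower and none higher. ELN, which encodes tropoelastin, the rubber-like core of the elastic fibre, was at 2304, 1614 and 1411 CPM without a mold and 776, 679 and 831 CPM at the anchored post (log2 fold change -1.22, SE 0.258, adjusted p = 0.00615), a difference that passed only with no-mold library 1 included (adjusted p = 0.0589 without it). MFAP2, a microfibril protein, was called lower (log2 fold change -0.34, adjusted p = 0.0464), and leaving out any 1 of the 6 libraries took its adjusted p above the threshold, from 0.0642 to 0.155. With no-mold libraries 1 and 3 left out, no elastic fibre gene was called.

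The fibrous collagens themselves did not pass the test. COL1A1, the main chain of type I collagen, was at 13929, 10444 and 8775 CPM without a mold and 9873, 7417 and 10965 CPM at the anchored post, and the ranges overlapped (log2 fold change -0.23, SE 0.204, adjusted p = 0.575), and 61.8% of its counts were in values that are not whole. COL1A2 (log2 fold change 0.09, adjusted p = 0.796) and COL3A1 (log2 fold change -0.33, adjusted p = 0.255) also overlapped. Of 22 tested genes for fibrous collagens and their processing, 1 was higher and 3 were lower, beside 2.92% and 2.64% of all genes tested, with a median of -0.189. The higher gene was P4HA3, a subunit of the enzyme that hydroxylates collagen prolines (log2 fold change 0.47, adjusted p = 0.0352). The lower ones were PLOD1, a lysyl hydroxylase (log2 fold change -0.78, adjusted p = 0.00996), ADAMTS2, which removes the amino propeptide of procollagen (log2 fold change -0.44, adjusted p = 0.0305), and PCOLCE2, an enhancer of carboxy propeptide removal (log2 fold change -0.36, adjusted p = 0.0482). All 4 calls were lost without no-mold library 1, at adjusted p of 0.0747, 0.0596, 0.2 and 0.0909 in that order. P4HA3 and PCOLCE2 were also lost without no-mold library 3 (0.188 and 0.28) and without anchored-post library 1 (0.071 and 0.215) or 3 (0.126 and 0.0606). PLOD1 was lost without anchored-post library 1 (0.0523) and ADAMTS2 without anchored-post library 1 (0.109) or 2 (0.0991). Of the counts of P4HA3 and PLOD1, 34.4% and 63.1% were in values that are not whole.

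Small leucine-rich proteoglycans, which bind collagen fibrils and set their width, split by member. Of 12 tested, 3 rose and 1 fell, beside 2.92% and 2.64% of all genes, and the 3 rises held without any 1 of the 6 libraries. DCN, which encodes decorin, was at 1748, 1687 and 1521 CPM without a mold and 2914, 2784 and 2685 CPM at the anchored post (log2 fold change 0.76, SE 0.105, adjusted p = 0.000108). OGN, which encodes osteoglycin, was at 28.9, 32.00 and 29.3 CPM against 70.6, 95.9 and 67.8 CPM (log2 fold change 1.36, SE 0.158, adjusted p = 2.96e-05). ASPN, which encodes asporin, was at 178, 250.0 and 171 CPM against 415, 535 and 397 CPM (log2 fold change 1.16, SE 0.156, adjusted p = 9.36e-05). In each of the 3 genes the lowest anchored-post library was well above the highest no-mold library. The gene that fell was PRELP, a fibril anchor of cartilage, at a low level of 3.04, 5.03 and 3.47 CPM against 1.18, 1.64 and 1.83 CPM (log2 fold change -1.36, adjusted p = 0.0277), lost without no-mold library 2 (adjusted p = 0.25) or 3 (0.066) or anchored-post library 1 (0.0886) or 2 (0.0558). Without no-mold libraries 1 and 3 only OGN of the list was called.

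Among 14 tested genes of tendon and fibrous tissue, 3 rose, beside 2.92% of all genes, and none fell. TNC, which encodes tenascin C, a matrix protein of tissue under tension, was at 125, 179 and 126 CPM without a mold and 306, 297 and 374 CPM at the anchored post, with no overlap (log2 fold change 1.16, SE 0.163, adjusted p = 0.000121). POSTN, the fibroblast matrix protein periostin (log2 fold change 0.54, adjusted p = 0.0128), was lost without no-mold library 1 (adjusted p = 0.0773) or 3 (0.0926) or anchored-post library 1 (0.058). THBS4, a thrombospondin of tendon (log2 fold change 0.77, adjusted p = 0.0197), was lost without no-mold library 2 (0.0506) or 3 (0.122) or anchored-post library 3 (0.0783). The tendon regulators SCX (24.3, 25.8 and 17.9 CPM against 20.3, 21.2 and 27.4 CPM) and MKX (33.9, 48.2 and 38.7 CPM against 49.7, 54.8 and 45.4 CPM) overlapped between the groups and did not pass (adjusted p = 1 and 0.284). THY1, a fibroblast surface protein from the identity list, rose from 94.2, 86.4 and 91.3 CPM to 179, 144 and 157 CPM (log2 fold change 0.82, SE 0.123, adjusted p = 0.00026). Without no-mold libraries 1 and 3, none of the 3 tendon list genes passed and THY1 did.

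Of 20 tested genes for type VI, XII and XIV collagens and basement membrane, 2 rose and 1 fell, and the median was 0.233. COL4A1, a chain of basement membrane collagen, was at 9.62, 8.23 and 6.95 CPM without a mold and 19.1, 10.8 and 26.96 CPM at the anchored post (log2 fold change 1.23, adjusted p = 0.011), a call lost without no-mold library 2 (0.0533) or 3 (0.0632) or anchored-post library 3 (0.0636). NID1, the basement membrane linker nidogen 1, was at 22.3, 11.9 and 21.8 CPM against 29.2, 31.1 and 25.00 CPM (log2 fold change 0.70, adjusted p = 0.0163), lost without no-mold library 2 (0.209) or anchored-post library 2 (0.0556). COL18A1, the source of endostatin, fell (log2 fold change -0.85, adjusted p = 0.00993), and this was lost without no-mold library 1 (0.0526) or 3 (0.053).

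Some contractile and cytoskeletal genes were higher at the anchored post. Of 23 tested, 7 rose, beside 2.92% of all genes tested, none fell, and 18 estimates were above 0, with a median of 0.150. TPM4 (ENSBTAG00000004553), a tropomyosin that lines actin filaments, was at 1326, 1519 and 1315 CPM without a mold and 2023, 2484 and 1973 CPM at the anchored post (log2 fold change 0.64, SE 0.111, adjusted p = 0.00127). CALD1, which encodes caldesmon, a regulator of actin and myosin, was at 742, 773 and 686 CPM against 1272, 1249 and 1132 CPM (log2 fold change 0.73, SE 0.109, adjusted p = 0.000262), and 53.6% of its counts were in values that are not whole. MYLK, the kinase that switches on smooth muscle myosin, was at 8.10, 7.54 and 4.96 CPM against 17.9, 22.8 and 21.6 CPM (log2 fold change 1.57, SE 0.299, adjusted p = 0.00266). These 3 were the members whose calls held without any 1 of the 6 libraries, and in each the groups stood apart.

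ACTA2, smooth muscle actin, was at 692, 879 and 757 CPM without a mold and 1062, 1315 and 1056 CPM at the anchored post (log2 fold change 0.56, SE 0.140, adjusted p = 0.0186). 85.96% of its counts stood in values that are not whole, and the call was lost without no-mold library 1 (adjusted p = 0.105), no-mold library 3 (0.0906) or anchored-post library 2 (0.0923). TPM1 (log2 fold change 0.38, adjusted p = 0.0129) and ACTN1, an actin crosslinker (log2 fold change 0.49, adjusted p = 0.0147), also rose. TPM1 was lost without no-mold library 1 (0.0653) or 3 (0.0598) and ACTN1 without no-mold library 3 (0.107). MYH9, the heavy chain of nonmuscle myosin, was the last of the 7 (log2 fold change 0.41, adjusted p = 0.0342) and had all of its counts in values that are not whole, and its call was lost without no-mold library 1 (0.132) or 3 (0.134) or anchored-post library 1 (0.0804) or 3 (0.104). Other smooth muscle genes did not pass: TAGLN was at 1485, 1591 and 1436 CPM against 1791, 1845 and 1795 CPM (log2 fold change 0.27, adjusted p = 0.227) and CNN1 overlapped at 41.01, 34.5 and 38.2 CPM against 32.7, 42.01 and 33.2 CPM (log2 fold change -0.06, adjusted p = 0.902). The list had 4 rises with no-mold library 1 left out, 3 with no-mold library 3 left out and 0 with both left out.

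**Figure D3:**
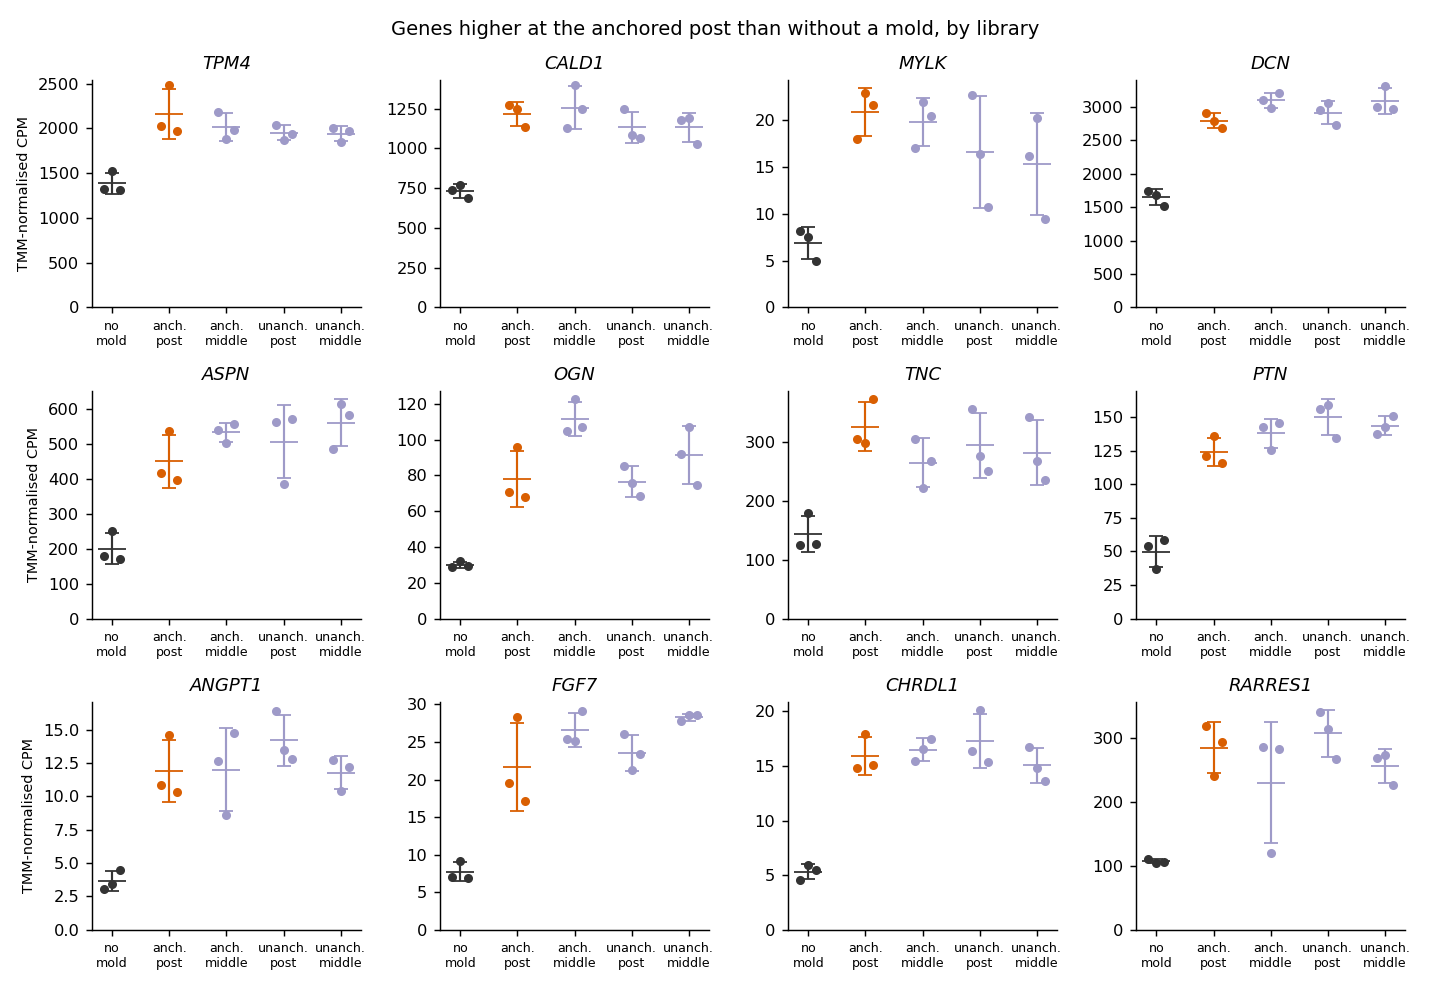
TMM-normalised CPM of 12 genes higher at the anchored post (orange) than without a mold (black), 1 point per library, horizontal bars the group mean and error bars 1 SD of 3 libraries, with the other 3 groups in violet for reference. In all 12 panels the black points lie below the orange ones, and for ASPN the violet group means run from 505 to 559 CPM.

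No tested member of the adhesion, YAP and SRF target or TGF-β lists passed the test. PGM5, a focal adhesion gene outside these lists, was called higher and is given under other observations. No gene was called among 25 tested integrin and focal adhesion genes (median -0.0457), 19 tested YAP and SRF target genes (median -0.0615) or 23 tested TGF-β ligands, receptors and feedback genes (median -0.0826) by edgeR's quasi-likelihood test, and 5, 3 and 4 of them in that order had an unadjusted p below 0.05. DESeq2 and limma-voom called 0 in each of the 3 lists as well. CCN2, a matricellular target of YAP and TGF-β, was at 1840.5, 2128 and 1969.9 CPM against 1839, 1889 and 2235 CPM (log2 fold change 0.01, SE 0.114, adjusted p = 0.989). CCN1 overlapped as well, 415, 465 and 386 CPM against 446, 512 and 520.1 CPM (log2 fold change 0.22, adjusted p = 0.467). Of 20 tested matrix proteases and inhibitors, 4 fell and none rose: the metalloproteinase inhibitors TIMP3 (log2 fold change -0.53, adjusted p = 0.00568), TIMP1 (log2 fold change -0.47, adjusted p = 0.0117) and TIMP4 (log2 fold change -1.21, adjusted p = 0.0164) and the urokinase receptor PLAUR (log2 fold change -0.45, adjusted p = 0.0137). TIMP3 held without any 1 library. TIMP1 was lost without no-mold library 3 (0.0756) or anchored-post library 1 (0.0523), TIMP4 without no-mold library 1 (0.0734) or 3 (0.105) or anchored-post library 3 (0.0502), and PLAUR without no-mold library 2 (0.0576) or 3 (0.0756) or anchored-post library 1 (0.0518). Among 21 tested genes of glycosaminoglycan and hyaluronan synthesis, the chondroitin synthase CHSY3 was higher (log2 fold change 0.53, adjusted p = 0.0284) and the sulfate transporter SLC26A2 lower (log2 fold change -0.58, adjusted p = 0.00993), and both were lost without no-mold library 1 (0.13 and 0.0609). CHSY3 was also lost without no-mold library 3 (0.0924) or anchored-post library 3 (0.159), and SLC26A2 without no-mold library 2 (0.0534) or anchored-post library 1 (0.0512).

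Some secreted growth factors were among the rises. Of 26 tested genes of FGF, VEGF, PDGF and angiopoietin signalling, 4 rose and 1 fell, beside 2.92% and 2.64% of all genes. The list as a whole did not lean upward, with 10 estimates above 0 and a median of -0.0377. ANGPT1, the ligand of the endothelial receptor TIE2, was at 3.04, 3.43 and 4.47 CPM without a mold and 10.8, 14.6 and 10.3 CPM at the anchored post (log2 fold change 1.71, SE 0.273, adjusted p = 0.000496). FGF7, a fibroblast factor that acts on epithelium, was at 7.09, 9.14 and 6.95 CPM against 19.5, 28.3 and 17.1 CPM (log2 fold change 1.41, SE 0.208, adjusted p = 0.000235), and its relative FGF10 at 16.2, 20.1 and 16.9 CPM against 32.7, 33.6 and 27.2 CPM (log2 fold change 0.77, SE 0.153, adjusted p = 0.00376). All 3 held without any 1 library, with no overlap between the groups. PDGFRA, a receptor of fibroblasts (log2 fold change 0.63, adjusted p = 0.0146), was lost without no-mold library 2 (0.054) or 3 (0.0948) or anchored-post library 2 (0.0751). The 1 fall was ANGPTL4, an inhibitor of lipoprotein lipase (log2 fold change -1.11, adjusted p = 0.021), lost without no-mold library 1 (0.0695) or 3 (0.104) or anchored-post library 1 (0.0675) or 2 (0.0524). VEGFA, the main driver of vessel growth, was at 25.8, 17.8 and 21.8 CPM against 15.2, 10.4 and 17.5 CPM and did not pass (log2 fold change -0.54, adjusted p = 0.174). Without no-mold libraries 1 and 3, ANGPT1 alone of the 4 rises passed.

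Of 13 tested secreted modulators of BMP and Wnt signalling, 2 rose and 1 fell, with 5 estimates above 0 and a median of -0.258. CHRDL1, which binds BMPs and blocks them, was at 4.56, 5.94 and 5.46 CPM without a mold and 14.8, 17.9 and 15.1 CPM at the anchored post (log2 fold change 1.53, SE 0.204, adjusted p = 8.83e-05), also without no-mold libraries 1 and 3. SFRP2, a Wnt binding protein, rose from a level near 0, 0.506, 0.457 and 0.992 CPM against 3.35, 2.19 and 3.14 CPM (log2 fold change 2.24, adjusted p = 0.0178), lost without no-mold library 1 (0.0665) or 2 (0.125) or anchored-post library 1 (0.0521). BMP2, a ligand that drives cartilage and bone formation, was at 27.3, 26.1 and 20.3 CPM against 17.3, 16.6 and 18.1 CPM (log2 fold change -0.51, adjusted p = 0.025), a call that held without no-mold library 3 or anchored-post library 3 and was lost without each of the other 4 (adjusted p from 0.0613 to 0.122). In the IGF family, where 11 genes were tested, IGFBP2 rose from 127, 58.5 and 103 CPM to 195, 201 and 188 CPM (log2 fold change 1.06, SE 0.211, adjusted p = 0.00372) and IGFBP5 fell from 23.8, 19.7 and 18.9 CPM to 6.51, 3.84 and 5.24 CPM (log2 fold change -1.99, SE 0.360, adjusted p = 0.00168). Both are carriers of insulin-like growth factors, and both calls held without any 1 library.

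The smallest adjusted p among the genes named here belonged to PTN, which encodes pleiotrophin, a heparin-binding growth factor of developing cartilage and bone. It was at 54.2, 37.03 and 58.6 CPM without a mold and 121, 136 and 116 CPM at the anchored post (log2 fold change 1.36, SE 0.134, adjusted p = 4.9e-06), and the call held without no-mold libraries 1 and 3. Other large rises that held without any 1 library were the retinoid-responsive gene RARRES1 (111, 105 and 106 CPM against 319, 241 and 294 CPM, log2 fold change 1.41, adjusted p = 0.000177), the secreted protein gene CCDC3 (60.8, 48.7 and 46.6 CPM against 147, 217 and 138 CPM, log2 fold change 1.70, adjusted p = 0.00011) and SYTL2, a protein of vesicle traffic (5.57, 5.49 and 6.45 CPM against 16.4, 22.1 and 16.5 CPM, log2 fold change 1.66, adjusted p = 0.000108). PTX3, a soluble pattern recognition protein, was at 5.57, 1.37 and 6.45 CPM against 12.6, 17.4 and 11.5 CPM (log2 fold change 1.89, adjusted p = 0.00145), and DDIT4L, an inhibitor of mTOR signalling, at 3.54, 5.71 and 8.44 CPM against 16.8, 19.2 and 11.4 CPM (log2 fold change 1.40, adjusted p = 0.00234). CCDC112 rose from 9.11, 7.31 and 9.43 CPM to 26.6, 20.3 and 17.1 CPM (log2 fold change 1.34, adjusted p = 0.00162). The serum carrier TTR was also higher, 7.59, 3.89 and 2.48 CPM against 10.1, 14.6 and 12.6 CPM (log2 fold change 1.48, adjusted p = 0.0036), whereas the serum apolipoprotein gene APOA1 was lower, 68.9, 63.1 and 56.6 CPM against 30.6, 29.4 and 33.2 CPM (log2 fold change -1.01, adjusted p = 0.00136), and 71.1% of its counts were in values that are not whole. PRSS35, a secreted protease-like protein, was at 9.62, 10.97 and 13.9 CPM against 20.5, 40.4 and 23.3 CPM (log2 fold change 1.29, adjusted p = 0.0211), and 3 of the single omissions, no-mold library 1 (0.087), 2 (0.0926) and 3 (0.0602), as well as that of anchored-post library 2 (0.106), ended the call.

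Several large falls lay outside the matrix lists. DIPK1C was at 28.9, 12.1 and 16.4 CPM without a mold and 3.35, 2.19 and 2.49 CPM at the anchored post (log2 fold change -2.74, SE 0.347, adjusted p = 5.28e-05). SCARA5, a ferritin receptor of fibroblasts, was at 13.7, 6.63 and 10.9 CPM against 3.15, 2.37 and 2.88 CPM (log2 fold change -1.76, SE 0.328, adjusted p = 0.00209). NPTX1, a pentraxin first known from neurons, was at 36.5, 26.1 and 32.7 CPM against 14.8, 5.48 and 13.5 CPM (log2 fold change -1.44, SE 0.245, adjusted p = 0.00103). In these 3 genes the groups did not overlap, and no omission of 1 library ended the call. LPL, the lipoprotein lipase listed as an adipocyte marker, was at 54.2, 39.1 and 50.1 CPM against 16.6, 24.3 and 15.2 CPM (log2 fold change -1.33, SE 0.220, adjusted p = 0.000721). UPP1, an enzyme of uridine breakdown (32.4, 16 and 21.8 CPM against 7.10, 9.86 and 7.33 CPM, log2 fold change -1.46, adjusted p = 0.0036), and TET2, an enzyme that oxidises methylated cytosine (13.7, 13.9 and 15.9 CPM against 6.31, 5.66 and 4.84 CPM, log2 fold change -1.38, adjusted p = 0.00145), fell without overlap. NRP1, a coreceptor of VEGF and semaphorins, was at 13.2, 8.69 and 9.43 CPM against 4.14, 3.11 and 4.06 CPM (log2 fold change -1.40, adjusted p = 0.00844), lost without no-mold library 1 (0.0576). HBM, a haemoglobin chain that passed the filter only through its no-mold libraries, was at 5.06, 3.20 and 1.98 CPM against 0.197, 0.731 and 0.262 CPM (log2 fold change -3.05, adjusted p = 0.0156), lost without no-mold library 1 (0.082) or 2 (0.0518) or anchored-post library 1 (0.0579) or 3 (0.061).

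S100 calcium-binding proteins fell where they were called. Of 10 tested, 3 were lower, none higher, and all 10 estimates were below 0 (median -0.306). S100A1, a protein of muscle and cartilage cells, was at 71.4, 74.97 and 41.7 CPM without a mold and 15.8, 19 and 15.3 CPM at the anchored post (log2 fold change -1.94, SE 0.258, adjusted p = 8.83e-05). S100A2 was at 121, 126 and 150.3 CPM against 58.6, 82.4 and 53.4 CPM (log2 fold change -1.03, SE 0.208, adjusted p = 0.00431) and S100A13 at 90.1, 75.2 and 109.7 CPM against 49.9, 57.4 and 50.1 CPM (log2 fold change -0.78, SE 0.150, adjusted p = 0.00275). The 3 calls held without any 1 library, and S100A1 alone also without no-mold libraries 1 and 3.

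Metallothioneins and metal handling genes had 4 falls and no rise among 13 tested (median -0.300). HMOX1, the haem-degrading enzyme, was at 243, 188 and 193 CPM without a mold and 119.7, 144 and 115 CPM at the anchored post (log2 fold change -0.72, SE 0.140, adjusted p = 0.00332). MT2A, a zinc-binding metallothionein, was at 929.6, 1008 and 1129 CPM against 528, 757 and 541 CPM (log2 fold change -0.75, SE 0.146, adjusted p = 0.00315), and the ferritin heavy chain FTH1 at 3446, 3394 and 4033 CPM against 2314, 2879.6 and 2419 CPM (log2 fold change -0.51, adjusted p = 0.00956). All counts of both stood in values that are not whole, so that reads may be divided among copies. FTH1 was lost without no-mold library 3 (0.0803) or anchored-post library 1 (0.0588). MT1A (log2 fold change -0.44, adjusted p = 0.0466) held only without anchored-post library 2, with adjusted p from 0.0719 to 0.167 in the other 5 omissions. The symbol MT1E belongs to 2 identifiers, and neither passed (adjusted p = 0.0808 and 0.471).

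Of 14 tested genes of the glucocorticoid response, 3 were lower and 1 higher. HSD11B2, which inactivates cortisol, was at 15.2, 10.7 and 11.9 CPM without a mold and 6.31, 5.30 and 3.14 CPM at the anchored post (log2 fold change -1.36, SE 0.261, adjusted p = 0.00275). HSD11B1, which makes active cortisol, was at 68.9, 63.1 and 77.4 CPM against 45.7, 45.3 and 47.1 CPM (log2 fold change -0.58, adjusted p = 0.00477), and all of its counts stood in values that are not whole. The other lower member was ANGPTL4, given above, and the higher one was the kinase SGK1 (log2 fold change 0.46, adjusted p = 0.011), lost without no-mold library 2 (0.0684).

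Hypoxia genes had 4 falls among 23 tested, beside 2.64% of all genes, and no rise (median -0.256), but none of the 4 held in all 6 single omissions, and the count fell to 0 without anchored-post library 1 and to 1 without no-mold library 1 or 3. They were the vasodilator peptide gene ADM (74.9, 57.1 and 56.1 CPM against 32.1, 35.6 and 32.7 CPM, log2 fold change -0.89, adjusted p = 0.0166), the glucose transporter SLC2A1 (log2 fold change -0.48, adjusted p = 0.0178), the oxidase ERO1A (log2 fold change -0.72, adjusted p = 0.0268) and NDRG1 (log2 fold change -0.49, adjusted p = 0.00996). Without anchored-post library 1 their adjusted p were 0.0584, 0.0726, 0.113 and 0.0618. ADM (0.102), ERO1A (0.119) and NDRG1 (0.0772) were lost without no-mold library 1, and SLC2A1 (0.0988), ERO1A (0.0911) and NDRG1 (0.0529) without no-mold library 3. SLC2A1 was also lost without no-mold library 2 (0.0506), and ERO1A without anchored-post library 3 (0.066). SLC2A1 was the only 1 of 19 tested glycolysis genes called.

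Of 22 tested immediate early genes, 3 fell and none rose (median -0.292). FOSL1, a partner of JUN in AP-1, was at 31.4, 28.3 and 37.2 CPM without a mold and 20.9, 15.3 and 19.9 CPM at the anchored post (log2 fold change -0.76, SE 0.147, adjusted p = 0.00304). KLF4 (log2 fold change -0.52, adjusted p = 0.0036) also held without any 1 library, with 90.03% of its counts in values that are not whole. FOS (log2 fold change -0.51, adjusted p = 0.0305) was lost without no-mold library 1 (0.0797) or 3 (0.165) or anchored-post library 1 (0.0904) or 2 (0.125). With both no-mold libraries 1 and 3 left out, no member was called in the lists of proteases, metal handling, glucocorticoid, hypoxia and immediate early genes. In the remaining lists 0 to 3 members were called. PTGES, the prostaglandin E synthase, was lower among 18 inflammation genes (log2 fold change -1.79, adjusted p = 0.0314), lost in 5 of the 6 single omissions (adjusted p from 0.0602 to 0.142). C1S, a complement protease, was higher among 10 complement genes (log2 fold change 0.52, adjusted p = 0.0403), and its call was likewise lost in 5 of 6 (adjusted p from 0.0502 to 0.259). The redox list of 18 held 1 rise, PRDX6, a peroxiredoxin (log2 fold change 0.35, adjusted p = 0.0246), and 1 fall, HMOX1. PRDX6 was lost without no-mold library 1 (0.115) or 2 (0.0663) or anchored-post library 1 (0.0534) or 2 (0.0879). DHCR7, the last enzyme of cholesterol synthesis, was lower among 19 cholesterol genes (log2 fold change -0.48, adjusted p = 0.0203), lost without no-mold library 1 (0.091) or 3 (0.0673) or anchored-post library 2 (0.0818).

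Of 22 tested chaperone and unfolded protein response genes, the chaperones DNAJB11 (log2 fold change 0.44, adjusted p = 0.0152) and HSP90B1 (log2 fold change 0.51, adjusted p = 0.0315) were higher and HERPUD1, a factor in protein removal from the endoplasmic reticulum, was lower (log2 fold change -0.40, adjusted p = 0.0195). Without no-mold library 3 the adjusted p of the 3 were 0.0843, 0.204 and 0.16, and none was called. HSP90B1 was lost in 5 of the 6 single omissions, DNAJB11 also without no-mold library 1 (0.0759) or anchored-post library 2 (0.056) and HERPUD1 also without anchored-post library 1 (0.0954). By edgeR's quasi-likelihood test no gene was called among 21 proliferation genes (5 at an unadjusted p below 0.05, and 0 by DESeq2 or limma-voom), where MKI67 overlapped at 11.1, 9.60 and 4.47 CPM against 7.10, 2.37 and 8.25 CPM (log2 fold change -0.51, adjusted p = 0.448), or among 4 tested genes of the mitochondrial genome (1 at an unadjusted p below 0.05, and 1 higher by DESeq2 or limma-voom), whose median was 0.233.

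**Figure D4:**
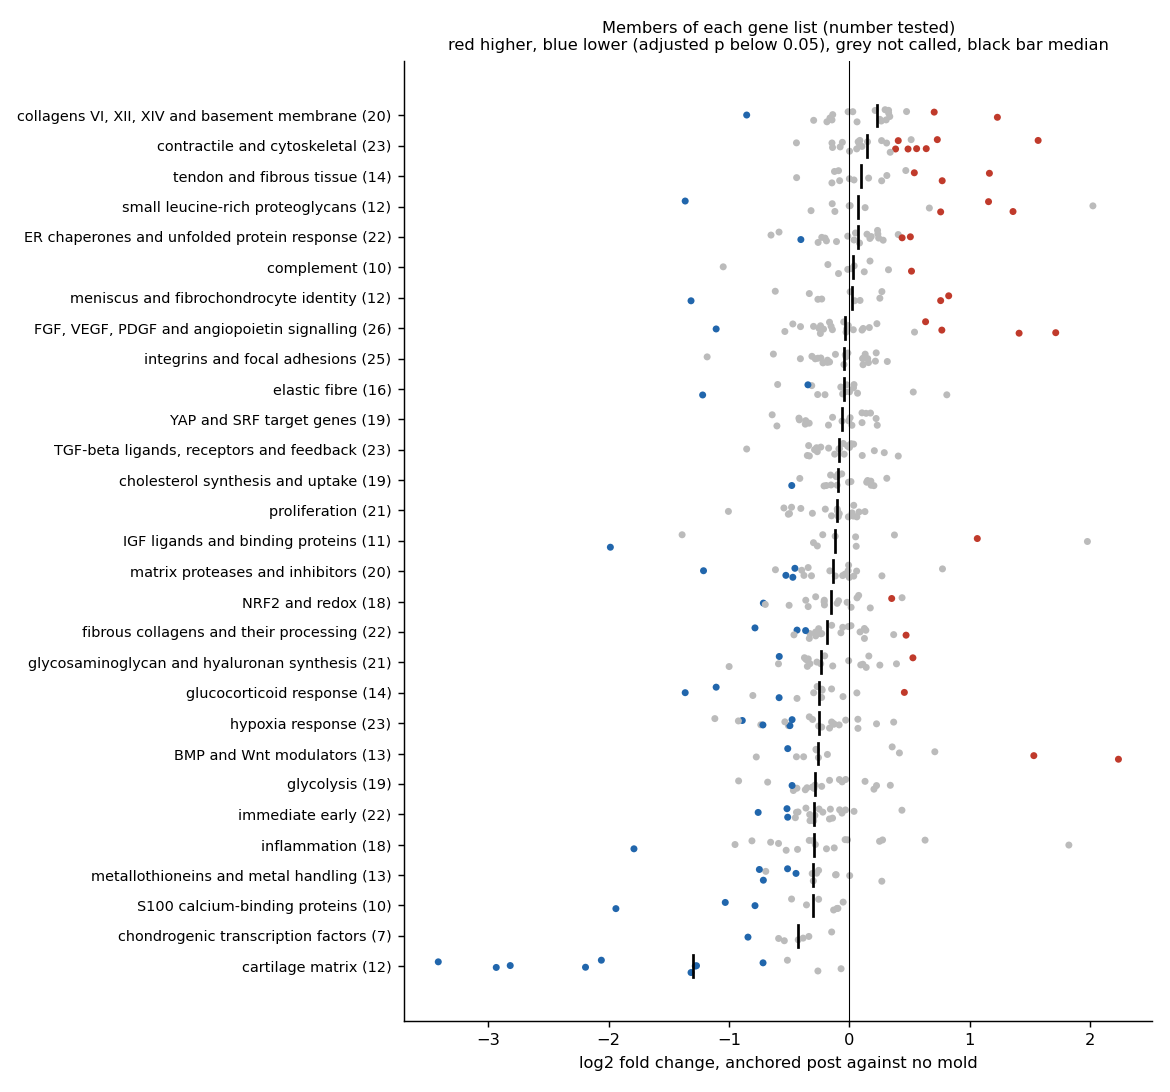
Log2 fold change of the anchored post against no mold (horizontal axis) for every tested member of 29 gene lists, with the number tested in brackets, called members in red (higher) or blue (lower) and the list median as a black bar. The cartilage matrix list stands furthest left with a median of -1.30, and the contractile list has 7 red points and no blue one.

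Direct comparisons were made with the group that differs in anchoring and the group that differs in region. Against the unanchored post, where the region is the same and the mold lacks anchors, none of 11834 genes passed in edgeR's quasi-likelihood test (0.00%), and 454 (3.84%) had an unadjusted p below 0.05. DESeq2 and limma-voom also called 0 genes, with 243 and 460 at an unadjusted p below 0.05. COL2A1 averaged 66.6 ± 11.7 CPM at the anchored post and 48.4 ± 25.2 CPM at the unanchored post (mean ± SD, n = 3), a log2 difference of 0.46 (SE 0.392). TPM4 averaged 2159.8 ± 282 and 1952 ± 83.7 CPM, a log2 difference of 0.15 (SE 0.111), and DCN 2794 ± 115 and 2909.6 ± 171 CPM, a log2 difference of -0.06 (SE 0.104). These values do not show that the 2 post groups were alike, since a p that misses the threshold bounds nothing by itself.

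Against the anchored middle, where the mold and its anchors are the same and the region differs, 227 genes (1.92%) passed, 30 higher (0.254%) and 197 lower (1.66%) at the post. This comparison shares the anchored-post libraries with the one against no mold, so that the 2 sets of values are not independent. Of the 12 tested cartilage matrix genes, 8 were lower at the post than in the middle, with a median of -0.998. COMP averaged 2189 ± 912 CPM in the middle and 720.0 ± 83.6 CPM at the post (log2 difference -1.60, SE 0.293, adjusted p = 0.0036). PRG4 averaged 279.6 ± 79.7 against 114 ± 22.9 CPM (log2 difference -1.29, SE 0.182, adjusted p = 0.000455). CHAD (log2 difference -1.23, adjusted p = 0.00711), ACAN (log2 difference -1.12, adjusted p = 0.0267), HAPLN1 (log2 difference -0.77, adjusted p = 0.00607) and ELN (log2 difference -1.09, adjusted p = 0.0261) were lower as well. In each of these genes anchored-middle library 2 held the highest middle value, for COMP 3219 CPM against 1481 and 1869 CPM. That library had 2986944 counts, against 7287672 and 6706643 in anchored-middle libraries 1 and 3. Its AFP stood at 82.3 CPM, against 26.6 and 37.2 CPM. The part of depth and of AFP in these differences was not tested. The calls of COMP and PRG4 held without any 1 of the 6 libraries of this comparison. Without anchored-post library 3 CHAD (0.0507) and HAPLN1 (0.054) were lost, and ACAN and ELN were each lost in 5 of 6 omissions, at adjusted p of 0.0577 to 0.112 and 0.0624 to 0.102. COL2A1 did not pass between the regions, though its estimate was about as large as those of CHAD and ACAN (156 ± 105 CPM in the middle, log2 difference -1.18, SE 0.378, adjusted p = 0.117). SOX9 (139.7 ± 5.15 CPM, log2 difference -0.16, adjusted p = 0.481) and S100A1 (19.8 ± 11.2 CPM, log2 difference -0.08, adjusted p = 0.932) had smaller estimates and did not pass.

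Beside these, the list medians against no mold differed between groups for cartilage matrix, at -1.52 for the unanchored post, -0.0745 for the anchored middle and -0.442 for the unanchored middle, values that share the no-mold libraries and carry no test. In the anchored middle the members split. Log2 estimates against no mold were -2.24 (SE 0.370) for COL2A1, -2.00 (SE 0.296) for COL11A2, -1.55 (SE 0.337) for COL9A2 and -0.83 (SE 0.233) for CHAD. They were smaller for ACAN (-0.16), PRG4 (0.02), HAPLN1 (0.05) and COMP (0.29), and above 0 for COL11A1 (0.48, SE 0.135). For the contractile list the medians against no mold were 0.150 at the anchored post and 0.170 in the anchored middle. They were -0.0704 at the unanchored post and -0.0545 in the unanchored middle, again without a test. None of the 23 contractile genes passed between the anchored post and the anchored middle. CALD1 averaged 1218 ± 75.3 CPM at the post and 1256 ± 136 CPM in the middle (log2 difference -0.04, adjusted p = 0.905), and MYLK 20.8 ± 2.54 and 19.8 ± 2.55 CPM (log2 difference 0.10, adjusted p = 0.884). MT1A and FTH1, lower than without a mold, were higher at the post than in the middle, by 0.78 (adjusted p = 0.00221) and 0.52 (adjusted p = 0.0177) on the log2 scale. FTH1 was lost without anchored-post library 2 (0.0701) or 3 (0.0507) or anchored-middle library 3 (0.114).

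Many calls were lost when a single library was left out, which also lowers the power of the test. Leaving out no-mold library 1, 2 or 3 brought the count of 658 genes to 280, 616 or 251, and it was 373, 436 and 535 without anchored-post libraries 1, 2 and 3. Calls made with all libraries and without any 1 of the 6 numbered 176, of which 99 were higher and 77 lower at the anchored post. Of the 89 calls among the genes that the naming rule covers, 45 held in all 6 omissions and 44 were lost in at least 1.

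**Figure D5:**
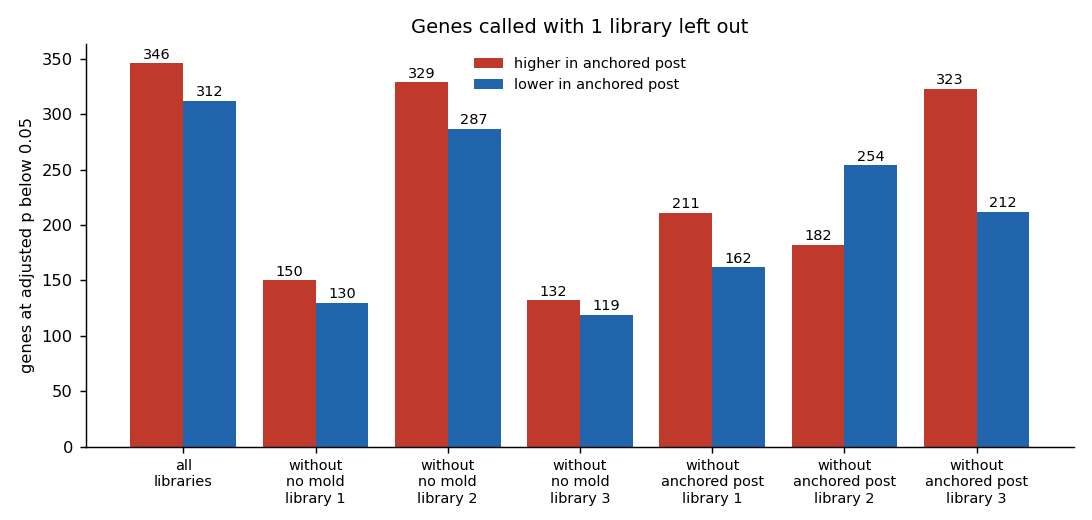
Number of genes called higher (red) or lower (blue) at the anchored post at an adjusted p below 0.05 with all libraries and with each of the 6 libraries left out. Bars start at 0, and the counts drop furthest without no-mold library 1 (150 and 130) or 3 (132 and 119).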

How the data were processed

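RNA was measured in 15 libraries, 3 in each of 5 groups taken from the labels. Per the labels' protocols, libraries were primed with oligo-dT carrying a molecular identifier (UMI) and tagmented, so that they read mainly 3' ends, and no gene length enters the values. Tools named in the submitters' processing notes are STAR 2.7, featureCounts of Subread 2.1.1, SAMtools 1.21 and MultiQC 1.33. Build, annotation and any collapsing of reads by UMI: not given in the sources used here.

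The authors deposited expected counts, which the counting step need not leave whole, and CPM, which equal those counts scaled to a library total of 1e+06. Of the nonzero values of a library, 13.5% to 16.3% are not whole (tolerance 1e-06), and 41.5% to 47.4% of its counts stand in them. Counts were rounded, 92 spike-in rows were left out, and of 38001 gene rows 11834 passed filterByExpr (count 10, total 15). All 15 libraries were fitted with 1 mean per group in edgeR 4.0.16 (R 4.3.3) with TMM scaling, and contrasts were tested two-sided by the quasi-likelihood test with Benjamini-Hochberg adjustment over all genes and a threshold of 0.05. Normalised CPM are TMM-scaled. Library totals of 2060781 to 7415701 counts set the precision. The test was first checked on simulated data.

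Genes named are up to 15 rises and 15 falls of largest fold change past the threshold (symbol of 1 identifier, mean of at least 10 CPM in either group, no overlap), up to 5 called members per list by smallest p, a fixed panel, and up to 6 genes passing all 3 comparisons, which gave 103 genes. AFP, HAPLN1, COL9A1, COL11A1, MYH9, SOX10, FABP4, COL10A1, MMP13 and the genes under other observations were named outside this rule, after their values were seen. The comparison, its members and the lists were chosen with earlier results of these data known. List members whose symbols the table lacks, among them PPARG, ADIPOQ, SOD2 and DKK1, were not analysed here. Alternatives covered scaling, filters, DESeq2 1.42.0, limma-voom (limma 3.58.1), the 6 libraries alone, a replicate block, thinning to the shallowest library and the omission of libraries or of genes that share reads. No sequences or coordinates were used.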

Additional observations from a re-analysis of the deposited data

Results flagged for a closer look

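For 15 of the genes that the naming rule covers the difference from no mold at the anchored post was itself different from that at the anchored middle, by the direct contrast of the 2 regions in edgeR's quasi-likelihood test (log2 differences, post minus middle, adjusted p below 0.05). Lower at the post were cartilage and elastic matrix genes, COMP (-1.60), PRG4 (-1.29), CHAD (-1.23), ACAN (-1.12), ELN (-1.09) and the type III collagen gene COL3A1 (-0.74). The proteoglycan gene OGN, higher at the post than without a mold, was lower there than in the middle (-0.51). Genes outside the matrix that were lower at the post were DIPK1C (-2.26), SCARA5 (-2.02), HSD11B2 (-1.73), NPTX1 (-1.59), LPL (-1.15) and TIMP4 (-1.06). MT1A (0.78) and FTH1 (0.52) were higher at the post than in the middle. Of the genes named outside that rule, HAPLN1 (-0.77), COL11A1 (-0.55), PKD1 (-0.75), BMPER (-1.79) and CLEC3A (-2.54) also passed this contrast, all lower at the post. COL11A1 was lost in 5 of 6 omissions (adjusted p from 0.0701 to 0.112). CLEC3A, at a mean of 0.367 CPM at the post and 1.98 CPM in the middle, was lost without any anchored-post library or anchored-middle library 3 (0.054 to 0.102). Without anchored-post library 3, BMPER (0.0648) and HAPLN1 (0.054) were lost. The anchored-post libraries enter both contrasts. At least 1 omission of a library ended the calls of OGN, CHAD, ACAN, ELN, TIMP4, FTH1 and COL3A1 between the regions, and the other 8 of the 15 held. ACAN, ELN and TIMP4 were each lost in 5 of 6 omissions. OGN was lost without anchored-post library 1 (adjusted p = 0.173) or 3 (0.224) or anchored-middle library 2 (0.1) or 3 (0.102), and COL3A1 without anchored-post library 1 (0.0951) or 3 (0.0653) or anchored-middle library 3 (0.0702). Rows for the 92 ERCC spike-in sequences held 18 to 70 counts per library over the 15 libraries, and no source used here says that spike-ins were added.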

How the results depend on the processing

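The count of 658 genes was 656 with DESeq2 size factors, 667 with upper-quartile scaling, 779 with library totals, 918 with no count filter, 717 with a stricter one, 676 by DESeq2, 625 by limma-voom, 690 in the 6 libraries alone and 515 with all libraries thinned to the shallowest. Genes called higher moved from 346 to 544 with library totals and to 573 with no filter. Leaving out 1 library gave 251 to 616 calls, 132 to 329 higher and 119 to 287 lower. Leaving out no-mold libraries 1 and 3 gave 34 calls, 18 higher and 16 lower. Leaving out genes with 10% or more of their counts in values that are not whole, an alternative chosen after seeing the data, gave 372 calls among 7821 genes tested, 197 higher and 175 lower.

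Against the unanchored post 0 genes were called under every alternative run except no filter, which called 21. Against the anchored middle, 227 genes became 479 with no filter, 105 in the 6 libraries of that comparison alone, 129 with thinning and 125 without genes that share reads, and 62 to 283 with 1 library left out (lowest without anchored-post library 3, and 121 without anchored-post library 1 and 96 without anchored-middle library 3). None of the 658 or 227 calls changed its direction under any alternative in which the gene was tested. Without genes that share reads, 384 of the 658 calls were still tested. In the counts that follow, a gene that an alternative did not test was not counted as lost. Of the 89 calls among the genes that the naming rule covers, 9 were lost with thinning, 7 with library totals, 4 in the 6 libraries alone, 3 with no filter, 2 without genes that share reads, 12 to 32 with 1 library left out and 72 without no-mold libraries 1 and 3.

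Deviations of same-numbered libraries from their group means correlated weakly, at 0.115, 0.0804 and 0.000841. Those of differently numbered libraries correlated at -0.114 to 0.0450. These values do not decide whether replicate numbers pair the libraries. With the replicate number as a block the 3 counts were 679 (350 higher, 329 lower), 0 and 273, and 1 call among the named genes, MFAP2, was lost. Depth limits the genes near 1 CPM, which is 2 counts in the shallowest library.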

Other observations

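Some genes of ribosome assembly rose at the anchored post. A list of 97 such genes, written after the calls were seen and so not independent of them, had 96 identifiers tested. Of these, 19 rose, 1 fell, 74 estimates were above 0 and the median was 0.189 on the log2 scale, beside 2.92% of all genes called higher. NOP58, a core protein of the particles that methylate ribosomal RNA, was at 31.4, 35.2 and 36.2 CPM without a mold and 67.4, 60.6 and 49.9 CPM at the anchored post (log2 fold change 0.78, SE 0.138, adjusted p = 0.00145). LTV1, which helps export the small subunit, was at 12.7, 15.3 and 14.4 CPM against 28.4, 25.2 and 25.00 CPM (log2 fold change 0.86, SE 0.181, adjusted p = 0.00595). BRIX1, a factor of the large subunit, was at 15.7, 25.1 and 15.9 CPM against 29.2, 34.7 and 34.2 CPM (log2 fold change 0.71, adjusted p = 0.00932), lost without no-mold library 1 (0.0619) or 3 (0.0712). NCL, which encodes nucleolin, was at 283, 276 and 262 CPM against 423, 353 and 318 CPM (log2 fold change 0.41, adjusted p = 0.0222), and all of its counts stood in values that are not whole. Its call was lost without any 1 no-mold library (adjusted p from 0.0515 to 0.107) or anchored-post library 1 (0.139). The gene that fell was NOP53. Without no-mold library 1 the list had 8 rises, without no-mold library 3 it had 9 and without both it had 2.

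The following single genes were chosen after their values were seen. PKD1, which encodes polycystin 1, was at 106, 99.2 and 105 CPM without a mold and 53.4, 46.8 and 52.5 CPM at the anchored post, with little spread in either group (log2 fold change -1.02, SE 0.127, adjusted p = 4.75e-05). It averaged 87.3 ± 18.2 CPM in the anchored middle and was lower at the post than there (log2 difference -0.75, adjusted p = 0.0016). TRPV4, a calcium channel of cartilage cells, was at 12.2, 5.03 and 8.44 CPM against 2.96, 2.37 and 3.01 CPM (log2 fold change -1.46, adjusted p = 0.0102), lost without no-mold library 1 (0.0895). JAG1, a Notch ligand, was at 21.8, 16.9 and 17.9 CPM against 7.89, 6.94 and 9.16 CPM (log2 fold change -1.19, adjusted p = 0.000432). BMPER, which binds BMPs, was at 9.62, 4.57 and 9.92 CPM against 2.17, 3.47 and 1.57 CPM (log2 fold change -1.63, adjusted p = 0.0147), lost without no-mold library 1 (0.0816) or 3 (0.0967) or anchored-post library 3 (0.0661). IL33, a cytokine of stromal nuclei, was higher, 0.506, 1.600 and 1.98 CPM against 5.32, 8.04 and 3.80 CPM (log2 fold change 1.94, adjusted p = 0.0044).

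CLEC3A and PLXDC1 passed the count filter only through their no-mold libraries, and SCUBE2 only through its anchored-post libraries. CLEC3A, a lectin of cartilage, was at 4.56, 5.49 and 3.47 CPM without a mold and 0.394, 0.183 and 0.524 CPM at the anchored post (log2 fold change -3.54, adjusted p = 0.000362). PLXDC1 was at 5.06, 2.06 and 5.46 CPM against 0, 0.731 and 0.131 CPM (log2 fold change -3.63, adjusted p = 0.00477), and PGM5, a protein of adherens junctions and focal adhesions, at 2.03, 2.97 and 1.98 CPM against 8.67, 7.85 and 9.95 CPM (log2 fold change 1.83, adjusted p = 0.00126). SCUBE2, a secreted protein that carries hedgehog ligands, had 0 counts over the 3 no-mold libraries and 29 over the 3 anchored-post libraries, and its call was lost without no-mold library 2 (adjusted p = 0.0689). Set against a floor of 3 counts over the no-mold group, its observed level was 4.64-fold higher by library totals (1.61 against 0.347 CPM). That ratio is not a lower bound, since the 29 counts carry their own error.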
